A study of Mus musculus with 24 samples.

Results

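The loci of 6 genes that MLL fusion proteins are known to activate, Hoxa9, Hoxa10, Meis1, Myb, Cdk6 and Mef2c, were examined in enhancer catalogues of normal and leukemic mouse myeloid cells. The members were chosen by position alone, as all regions of the 6 deposited lists that overlap a window on mm9 given for each gene. Whether each window holds its gene was not checked, as gene positions on mm9 were not used here, so each locus name stands for its window. The windows were chr6:52000000-52350000 for Hoxa9 and Hoxa10, which share 1 window, chr11:18680000-19020000 for Meis1, chr10:20740000-20980000 for Myb, chr5:3240000-3630000 for Cdk6 and chr13:83540000-83910000 for Mef2c. Together they span 1690 kb. They held 199 of the 45155 regions of all 6 lists, of which 20 of 3332 were in the granulocyte-monocyte progenitor (GMP) list, 45 of 9404 in the k+ list and 58 of 13856 in the k- list. The other 3 lists contributed 56 regions to the gained members (of 15189), 4 to the lost (of 1504) and 16 to the maintained (of 1870). These last 3 lists derive from the first 3, so each place is counted more than 1 time in the total.

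The study profiled C57BL/6 bone marrow GMP, which are normal progenitors of granulocytes and monocytes, and 2 populations of murine leukemia carrying the MLL-AF10 fusion, labelled leukemia stem cells (LSC) and mature AML cells (mAML). Each population had 1 untreated ChIP-seq library each for H3K27ac, H3K4me1, H3K4me3 and input, and a separate LSC series covered H3K27ac, P300 and input in untreated cells (0 hours) and after 24, 48 and 72 hours with A485, which blocks the acetyltransferases p300 and CBP. The leukemia cells were cultured with WEHI-conditioned medium, so they stand for cells in culture, and sheared chromatin was barcoded and pooled before the immunoprecipitation. All samples are labelled C57BL/6 and bone marrow, and the GMP had no treatment. The 24 samples have no replicates, and no list names the samples it was made from. No source used here says which of LSC and mAML stands behind k+ and which behind k-, and both are called leukemia lists under their own names. The lists hold positions only, so the depth and the signal behind a region are unknown, no marker gene could check the labelled cell types, and the spread between repeat preparations is unknown. All comparisons therefore describe these lists.

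MLL is a histone methyltransferase of the trithorax family. Its leukemic fusions keep the part that binds DNA, including a CXXC domain that recognises unmethylated CpG, and add a partner such as AF10, which works with the H3K79 methyltransferase DOT1L. Hoxa9 and Hoxa10 are homeobox transcription factors of the HoxA cluster that maintain immature blood cells, and Meis1 is a homeobox cofactor that binds DNA together with Hoxa9. Myb is a transcription factor required in blood progenitors, Cdk6 is a cyclin-dependent kinase of the G1 phase that is abundant in blood cells, and Mef2c is a MADS-box transcription factor active in lymphoid and myeloid progenitors. Enhancers, the subject of the lists, are usually recognised by H3K27ac and H3K4me1 away from promoters.

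The promoters of the 6 genes differed widely in CpG, the dinucleotide read by the CXXC domain. RefSeq promoters of 300 bases (250 before and 50 after the start, GRCm38.p6) were at hand for all 6 genes, 9 in all, since Hoxa10 has 2 and Mef2c 3. Those of Hoxa9, Myb and Cdk6 are shown because their loci held the least and the most enhancer length in leukemia, and that of Meis1 because its locus held many leukemia regions and 0 in GMP. Each is printed as the table gives it, with every CpG in capitals. Positions on GRCm38 are not comparable with mm9, so where the regions lie relative to these promoters was not analysed here.
Hoxa9 promoter, GRCm38.p6 chr6:52227321-52227620, minus strand: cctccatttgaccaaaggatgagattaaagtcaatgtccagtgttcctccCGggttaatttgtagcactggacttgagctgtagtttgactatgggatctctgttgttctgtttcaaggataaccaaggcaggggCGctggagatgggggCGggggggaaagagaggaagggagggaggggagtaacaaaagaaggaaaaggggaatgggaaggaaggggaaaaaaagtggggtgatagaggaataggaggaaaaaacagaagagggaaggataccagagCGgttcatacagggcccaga
Meis1 promoter, GRCm38.p6 chr11:19018920-19019219, minus strand: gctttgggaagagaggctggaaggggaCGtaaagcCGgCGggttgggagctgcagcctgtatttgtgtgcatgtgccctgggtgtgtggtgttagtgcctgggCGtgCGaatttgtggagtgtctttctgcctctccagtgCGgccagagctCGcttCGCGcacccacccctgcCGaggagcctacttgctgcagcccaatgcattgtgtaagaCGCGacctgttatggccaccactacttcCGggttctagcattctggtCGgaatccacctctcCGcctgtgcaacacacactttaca
Myb promoter, GRCm38.p6 chr10:21160935-21161234, minus strand: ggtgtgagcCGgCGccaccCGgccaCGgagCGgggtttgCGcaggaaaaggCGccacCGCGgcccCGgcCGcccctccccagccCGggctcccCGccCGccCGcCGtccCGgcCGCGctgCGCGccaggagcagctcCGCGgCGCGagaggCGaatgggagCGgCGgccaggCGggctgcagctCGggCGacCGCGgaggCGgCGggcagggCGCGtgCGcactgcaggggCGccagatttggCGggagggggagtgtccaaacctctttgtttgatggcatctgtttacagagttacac
Cdk6 promoter, GRCm38.p6 chr5:3343643-3343942, plus strand: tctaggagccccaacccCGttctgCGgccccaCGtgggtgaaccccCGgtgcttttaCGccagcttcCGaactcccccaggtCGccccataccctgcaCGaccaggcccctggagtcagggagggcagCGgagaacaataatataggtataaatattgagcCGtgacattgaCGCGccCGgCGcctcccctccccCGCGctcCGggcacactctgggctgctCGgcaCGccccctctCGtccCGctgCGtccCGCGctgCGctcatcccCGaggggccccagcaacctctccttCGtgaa

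The Hoxa9 promoter held 4 CpG, fewer than the median of 7 over the 32841 promoters of the same length in the table. Meis1 held 15, Cdk6 27 and Myb 40, and 34.6%, 15.5% and 3.91% of all promoters held at least as many. The 2 Hoxa10 promoters held 12 and 21, and the 3 of Mef2c held 1, 10 and 4. CpG-rich and CpG-poor promoters thus both occur among these genes, and the share of all promoters with at least as many CpG ran from 3.91% for Myb to 94.6% for the first Mef2c promoter. A CpG count describes these letters and is no measure of binding.

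The 5 loci differed greatly in how much enhancer sequence they held. Myb and Cdk6 were densely covered in leukemia and already held regions in GMP. Meis1 held regions in leukemia only, and Mef2c gained most of its length in k-. The Hoxa9 and Hoxa10 window held the least length of the 5 loci in both leukemia lists and 0 bp in GMP. The length covered by k+ regions was 0.8 kb at Hoxa9 and Hoxa10, 3.4 kb at Meis1, 3.6 kb at Mef2c, 26.8 kb at Myb and 42.0 kb at Cdk6. For k- it was 1.2, 9.8, 15.8, 24.8 and 34.8 kb in the same order. The GMP list covered 0 bp at Hoxa9 and Hoxa10, 0 bp at Meis1, 2.2 kb at Mef2c, 4.4 kb at Myb and 11.4 kb at Cdk6. Every locus held less in GMP than in each leukemia list, but the GMP list is also the shortest. Over the whole lists k+ and k- covered 4.31 and 7.01 times the GMP length, and over the 5 loci 4.26 and 4.80 times. At Cdk6 the ratios were 3.68 and 3.05, at Myb 6.09 and 5.64 and at Mef2c 1.64 and 7.18.

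**Figure D1:**
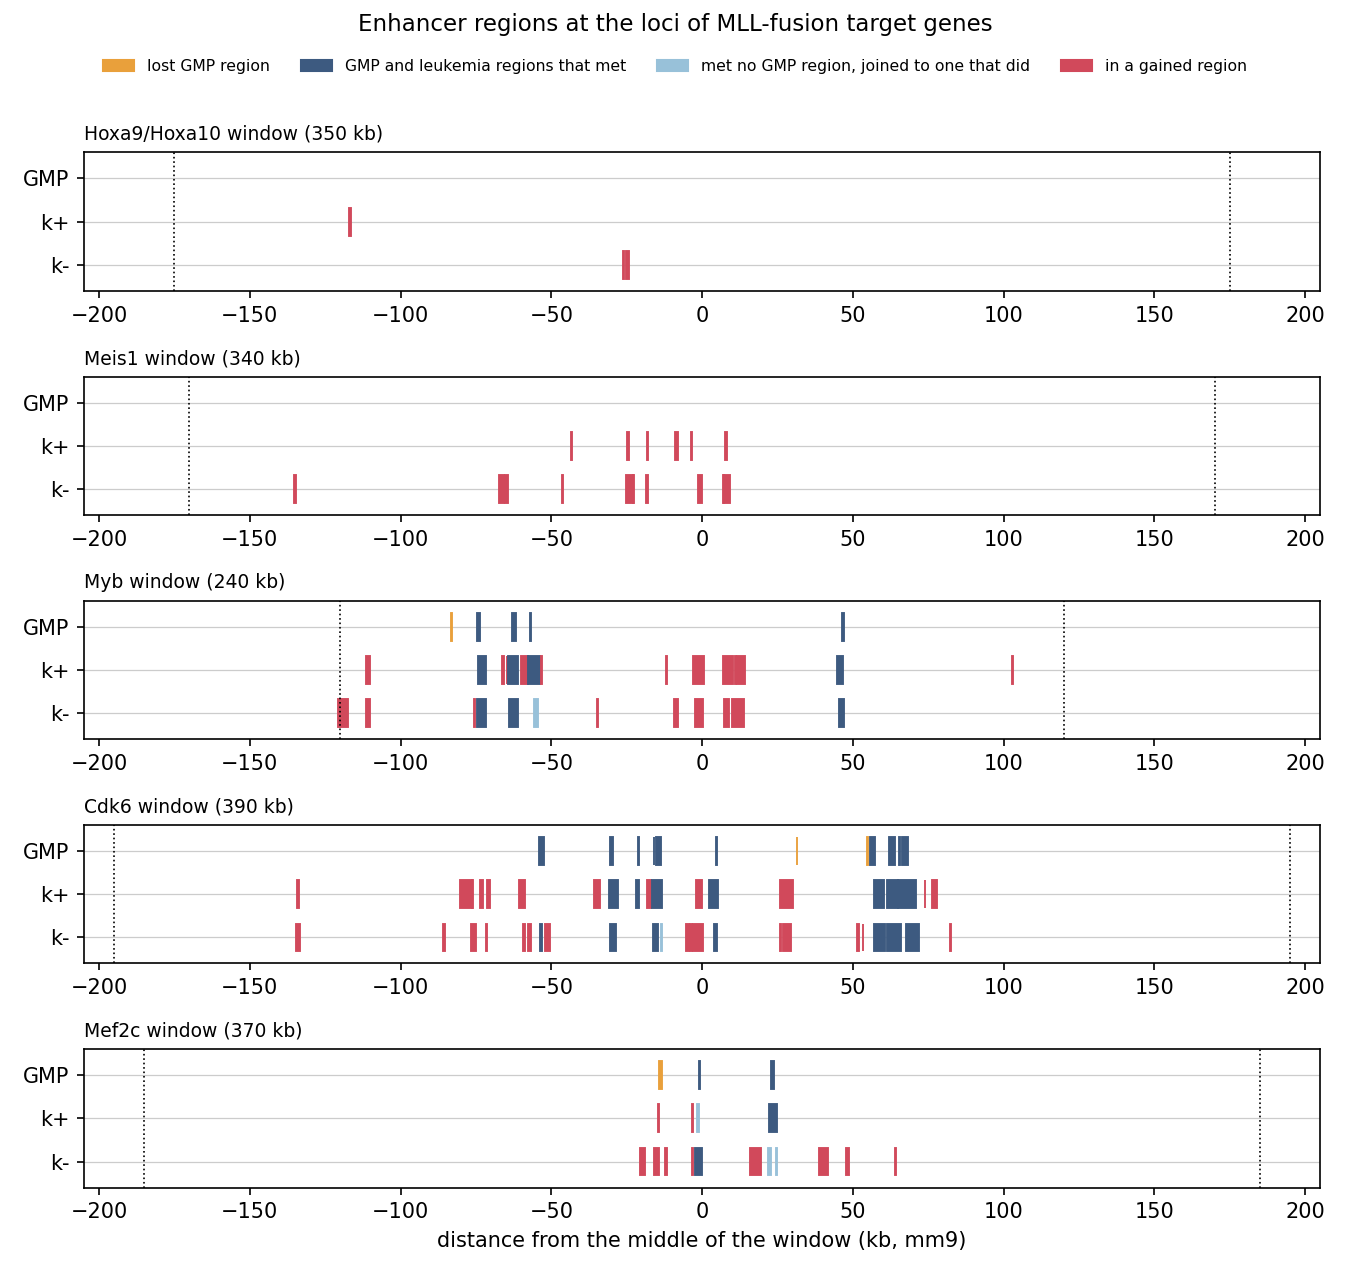
Regions of the GMP, k+ and k- lists along each window (x axis: distance from the middle of the window in kb on mm9; dotted lines: window edges). Boxes are regions, with an outline that slightly widens the narrowest, and colours give their fate; Hoxa9 and Hoxa10 and Meis1 hold 0 GMP regions, and the 20 GMP regions lie at Myb, Cdk6 and Mef2c.

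Set beside the autosomes, 4 of the 5 loci were richer in enhancer length than average in both leukemia lists. The means over autosomes were 0.951 kb of enhancer per Mb for GMP, 4.25 kb for k+ and 6.89 kb for k-. Myb held 111.7 kb per Mb in k+ and 103.3 kb in k-, which was 26.3 and 15.0 times the mean. Cdk6 held 107.7 and 89.2 kb, or 25.4 and 13.0 times the mean. Meis1 stood at 2.36 times the mean in k+ and 4.19 times in k-, and Mef2c at 2.29 and 6.20 times. Hoxa9 and Hoxa10 were below it, at 0.538 and 0.498 times. In GMP, Cdk6 stood at 30.7 times, Myb at 19.3 times and Mef2c at 6.25 times the mean. By number of regions, Hoxa9 and Hoxa10 stood at 0.742 times the autosome mean in k+ and 1.01 times in k-.

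**Figure D2:**
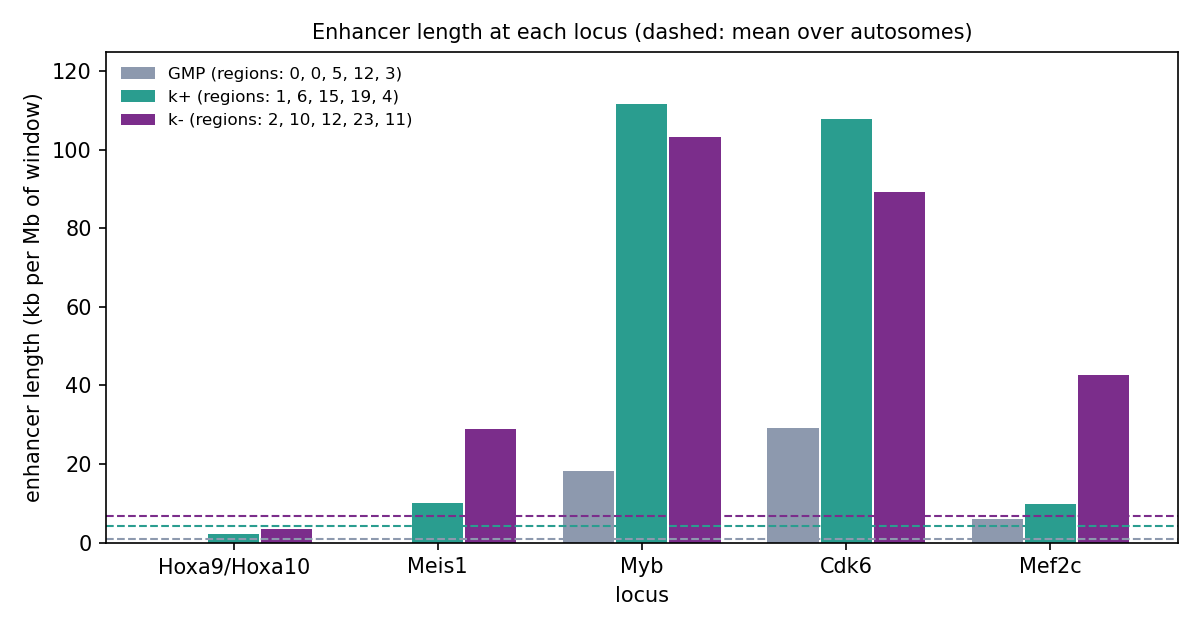
Enhancer length in kb per Mb of window (y axis) at the 5 loci (x axis) in the GMP, k+ and k- lists, with the mean over autosomes as dashed lines in the same colours and the number of regions per locus in the legend. Myb and Cdk6 stand at 89.2 to 111.7 kb per Mb in the leukemia lists, and among the leukemia bars only those of Hoxa9 and Hoxa10 lie below the dashed lines.

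Of the merged leukemia regions (k+ and k- joined where they overlap or touch), 69 lay at the 5 loci and 56 met no GMP region, which is the gained list. That share was 81.2% (exact Clopper-Pearson 95% interval 69.9 to 89.6%), and over the whole lists it was 90.0%. Intervals reflect counting error alone, and regions that lie close together may depend on each other. All 3 leukemia regions at Hoxa9 and Hoxa10 and all 13 at Meis1 were gained, since neither window held a GMP region. At Myb 13 of 17, at Cdk6 19 of 26 and at Mef2c 8 of 10 were gained. In the single lists, 33 of 45 k+ regions (73.3%) and 47 of 58 k- regions (81.0%) met no GMP region, against 87.6% and 89.5% of the whole lists. With an overlap of 1 bp the gained share at the loci was thus below that of the whole lists. This order turned under a rule that asks for 50% of both regions, with 100% at the loci against 97.4%. That rule cannot be met where the narrower region is less than 50% as wide as the other. No interval is given for it, so a turn beyond counting error was not assessed.

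Of the 20 GMP regions, 16 met a leukemia region and 4 were lost. The lost share was 20.0% (5.73 to 43.7%), against 45.1% of the whole GMP list. It was 1 of 5 at Myb, 2 of 12 at Cdk6 and 1 of 3 at Mef2c, and without Cdk6 it was 25.0%. GMP regions met k+ in 14 of 20 (70.0%, 45.7 to 88.1%; whole list 37.8%), k- in 13 of 20 (65.0%, 40.8 to 84.6%; whole list 47.4%) and both in 11 of 20 (55.0%, 31.5 to 76.9%; whole list 30.3%). GMP regions at the loci were wider than usual, with a median of 700 against 600 bp. Those of 1200 bp or more made up 7 of 20 at the loci and 647 of 3332 in the whole list. In the whole list wider GMP regions were kept more often. The share kept there was 37.5% at 200 bp, 50.8% at 400 to 600 bp, 60.4% at 800 to 1000 bp and 79.0% at 1200 bp or more. At the loci 3 of 4, 4 of 6, 2 of 3 and 7 of 7 were kept in these classes, which are too small to show whether a trend exists. The lower lost share also depends on the overlap asked for. Asking for 50% of both the GMP region and a single k+ or k- region left 18 of the 20 without a partner. That was 90.0%, against 80.9% of the whole list, so the order turned. Such a match is impossible where the narrower region is less than 50% as wide as the other. GMP regions wholly inside a far wider leukemia region therefore also lack a partner under this rule. No interval is given for it, so a turn beyond counting error was not assessed.

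Kept GMP regions lay inside far wider leukemia regions. For the 16 kept regions the median width was 900 bp in GMP and 3300 bp for the merged leukemia region that each met, with a median ratio of 4, against 3 for all 1828 kept GMP regions. The leukemia region was the wider one in 15 of 16 cases (93.8%, against 83.2% of all kept regions). Of the 16 GMP regions 14 were wholly covered, against 1329 of all 1828 kept ones. Some of the 16 met the same leukemia region, such as that of 10400 bp at Cdk6, which is then counted repeatedly. Joining k+ and k- widens the merged regions by construction.

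**Figure D3:**
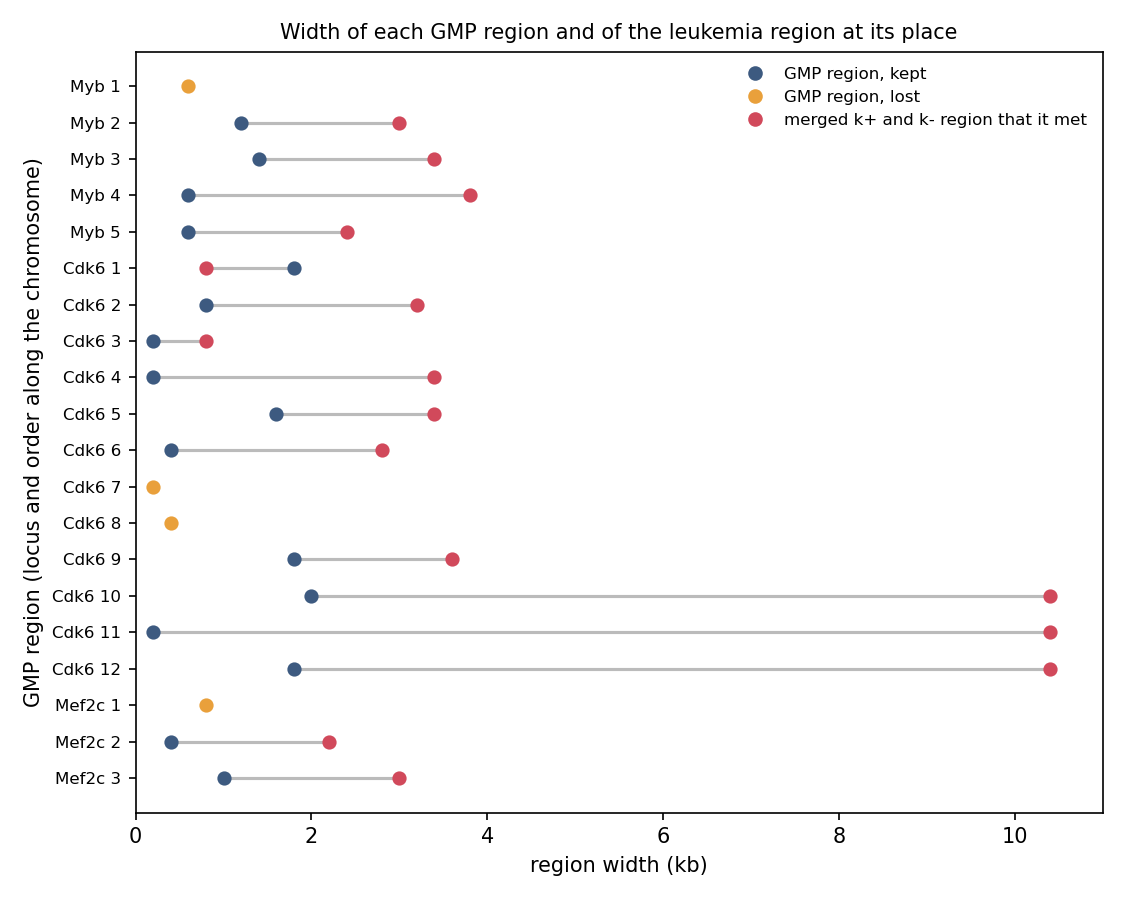
Width in kb (x axis) of each of the 20 GMP regions, listed by locus in their order along the chromosome (y axis), and of the merged leukemia region that it met, joined by a line. Only the first Cdk6 region is wider in GMP (1.8 kb) than in leukemia (0.8 kb), and the last 3 Cdk6 regions fall in 1 merged leukemia region of 10.4 kb.

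At Hoxa9 and Hoxa10, 3 regions were found, all gained and all in 1 leukemia list only. Of the whole gained list 28.3% were in both leukemia lists. The k+ list held chr6:52057801-52058600, of 800 bp. The k- list held chr6:52148801-52149200, of 400 bp, and chr6:52149801-52150600, of 800 bp. No base pair was shared between k+ and k-. Such counts were common: of 6891 non-overlapping stretches of 350 kb on the autosomes, 36.8% held at least 1 k+ region and 33.4% at least 2 k- regions. A GMP region was also missing in 77.1% of those stretches. No k+ region lay in 63.2% of them and no k- region in 56.4%. How the enhancer lists treat promoters is stated in no source used here. In the RefSeq gene order Hoxa9 lies between Hoxa7 and Hoxa10, and Hoxa11 follows.

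At Meis1, 13 gained regions covering 11.8 kb lay in a window without a GMP region. The regions spanned 144.4 kb, from 18714801 to 18859200 on chromosome 11. The widest gained region was chr11:18824801-18827000, of 2200 bp, and 2200 bp of it were in k- and 400 bp in k+. The next were chr11:18857401-18859200, of 1800 bp, with 800 bp in k+, and chr11:18782801-18784400, of 1600 bp, in k- only. The widest k+ region, chr11:18841001-18842000, measured 1000 bp and met no k- region. Of the 13 gained regions 3 were in both lists, 3 in k+ only and 7 in k- only. These shares were 23.1%, 23.1% and 53.8%, near the 28.3%, 21.2% and 50.5% of the whole gained list.

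The Meis1 cluster with the most gained regions, 8, ran between 18824801 and 18859200, stitched at gaps of at most 10 kb. It covered 7.6 kb of its 34.4 kb, and 45 of the 9063 clusters and single regions of the gained list held as many regions or more. Of 7093 stretches of 340 kb, 2.54% held at least 13 gained regions, 4.48% at least 10 k- regions and 7.18% at least 6 k+ regions. By covered length, 5.06%, 7.56% and 14.0% held at least as much as this window, in the same order. A GMP region was missing in 77.6% of those stretches. Outside the window, the nearest GMP regions lay 1774 kb below and 819 kb above the window, the nearest k+ regions 1771 and 2105 kb away and the nearest k- regions 1598 and 994 kb away. In the RefSeq gene order Meis1 lies between Etaa1 and Spred2.

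At Myb, 15 k+, 12 k- and 5 GMP regions were found. The GMP region chr10:20776601-20777200, of 600 bp, was lost, and its nearest leukemia region was a k- region 7200 bp away. The other 4 were kept. The GMP region chr10:20785201-20786400, of 1200 bp, lay in a k- region of 3000 bp and partly in a k+ region of 2400 bp that began at 20785801. The region chr10:20797001-20798400, of 1400 bp, lay in k+ and k- regions of 3400 and 3200 bp. The region chr10:20802801-20803400, of 600 bp, met only k+, in a region of 3800 bp that was the widest k+ region of the locus (chr10:20802401-20806200). The region chr10:20906401-20907000, of 600 bp, met regions of 1800 bp in both lists.

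The gained regions of Myb included some of the widest of the series. The region chr10:20866801-20874200 measured 7400 bp, and 39 of the 15189 gained regions were at least as wide. It joined 3 k+ and 2 k- regions, among them the widest k- region of the locus, chr10:20870001-20874000, of 4000 bp. The next were chr10:20857001-20860600, of 3600 bp and in both lists, and chr10:20739201-20742600, of 3400 bp and in k- only, which began 799 bp outside the window. In all, 3 of 13 gained regions were in both lists, 6 in k+ only and 4 in k- only. These shares were 23.1%, 46.2% and 30.8%, against 28.3%, 21.2% and 50.5% of the whole gained list.

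The gained regions of Myb formed 3 clusters. In the one with the most regions, from 20784401 to 20806800, 5 gained regions stood among 3 maintained ones, with 7 k+ and 4 k- regions. From 20848001 to 20874200, 4 gained regions covered 12.8 kb of 26.2 kb, and from 20733801 to 20749800, across the window edge, 3 covered 8.4 kb of 16.0 kb. Neither of these held a GMP region. Of 10056 stretches of 240 kb, 0.189% held at least 15 k+ regions, 1.31% at least 12 k- regions and 0.805% at least 5 GMP regions. RefSeq lists Ahi1 and Hbs1l as the neighbours of Myb.

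Cdk6 held the most regions, with 12 in GMP, 19 in k+ and 23 in k-, and was the only locus with GMP clusters. Of its 12 GMP regions 8 were met by both leukemia lists, 1 by k+ only, 1 by k- only and 2 by neither. The k- only region, chr5:3380801-3382600, of 1800 bp, was the sole one wider than its leukemia partner, a k- region of 800 bp that covered 44.4% of it. The k+ only region was chr5:3413801-3414000, of 200 bp. The regions lost were chr5:3466401-3466600, of 200 bp, which lay 1400 bp from a k+ region and 1800 bp from a k- region, and chr5:3489601-3490000, of 400 bp, which lay 2000 bp from a k+ region and 1200 bp from a k- region.

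The other 8 Cdk6 regions of GMP were met by both lists, and 7 of them were wholly covered. The region chr5:3404601-3405400, of 800 bp, lay in a merged leukemia region of 3200 bp. The regions chr5:3419001-3419200 and chr5:3419801-3421400, of 200 and 1600 bp, shared 1 merged region of 3400 bp, and chr5:3439601-3440000, of 400 bp, lay in one of 2800 bp. The region chr5:3490601-3492400, of 1800 bp, was covered only to 22.2%, by a merged region of 3600 bp. The last 3, chr5:3497001-3499000, chr5:3500401-3500600 and chr5:3501401-3503200, of 2000, 200 and 1800 bp, all lay in a merged leukemia region of 10.4 kb. That region held the widest k+ region of all 5 loci, chr5:3500001-3506000, of 6000 bp, and the widest k- region, chr5:3496401-3501000, of 4600 bp. Of the 9404 k+ regions, 52 were at least as wide as the first, and of the 13856 k- regions, 324 were at least as wide as the second.

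The 19 gained regions of Cdk6 covered 29.4 kb around and between the kept ones. The widest were chr5:3354601-3360000, of 5400 bp, chr5:3460801-3465000, of 4200 bp, and chr5:3432001-3435400, of 3400 bp, and all of them were in both lists. In all, 6 of the 19 were in both lists, 5 in k+ only and 8 in k- only. These shares were 31.6%, 26.3% and 42.1%, against 28.3%, 21.2% and 50.5% of the whole gained list. The cluster with the most gained regions, 7, ran from 3349001 to 3384400 and covered 12.4 of 35.4 kb. Of 6184 stretches of 390 kb, 0.0323% held at least 12 GMP regions, 0.178% at least 19 k+ regions and 0.113% at least 23 k- regions. The locus thus stood near the top of all 3 lists. RefSeq names Fam133b as its neighbour on the higher side.

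At Mef2c, 3 GMP, 4 k+ and 11 k- regions were found within 85.0 kb, from 83704401 to 83789400 on chromosome 13. The GMP region chr13:83710801-83711600, of 800 bp, was lost although regions of both leukemia lists ended 200 bp from it. The region chr13:83724001-83724400, of 400 bp, lay in a k- region of 2200 bp and 200 bp from a k+ region. The region chr13:83748001-83749000, of 1000 bp, lay in the widest k+ region of the locus, chr13:83747201-83749800, of 2600 bp, and 200 bp from a k- region. Thus each kept GMP region was met by 1 leukemia list and missed by the other by 200 bp, which is the width of 1 step of the grid on which all regions lie.

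All 8 gained regions of Mef2c were in k-, and 2 were also in k+. Thus 25% were in both lists and 75% in k- only, against 28.3% and 50.5% of the whole gained list. Those in k- only were chr13:83740801-83744400, of 3600 bp and the widest k- region of the locus, chr13:83763801-83766600, of 2800 bp, chr13:83704401-83706000, of 1600 bp, chr13:83772601-83773800, of 1200 bp, and chr13:83712601-83713200 and chr13:83788801-83789400, of 600 bp each. Those in both lists were chr13:83709201-83710600, of 1400 bp, and chr13:83721601-83722000, of 400 bp. The cluster with the most gained regions, 4, ran from 83704401 to 83722000 around the lost GMP region. At least 11 k- regions occurred in 4.19% of 6519 stretches of 370 kb, and at least 4 k+ regions in 14.8%.

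The leukemia lists differed in opposite directions among the loci. Over the whole lists k- covered 1.63 times the length of k+. At Mef2c this ratio was 4.39 and at Meis1 2.88, while at Myb it was 0.925 and at Cdk6 0.829. At Hoxa9 and Hoxa10 it was 1.5, resting on 3 regions. Myb and Cdk6 thus held more k+ than k- length, by 2000 and 7200 bp, although the k- list is the longer one. The signs at Meis1, Myb, Cdk6 and Mef2c held under each alternative tried. The size stayed within 1.5 times at Meis1. At Cdk6 and Mef2c it moved beyond that only among the widest regions, and at Myb under several alternatives. The k+ excess at Myb was 800 bp in regions of at least 800 bp and 6000 bp in windows shortened by 50 kb on both sides. At Cdk6 it was 16400 bp among the widest regions of lists of equal size. There is no replicate to say how far such differences would vary.

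**Figure D4:**
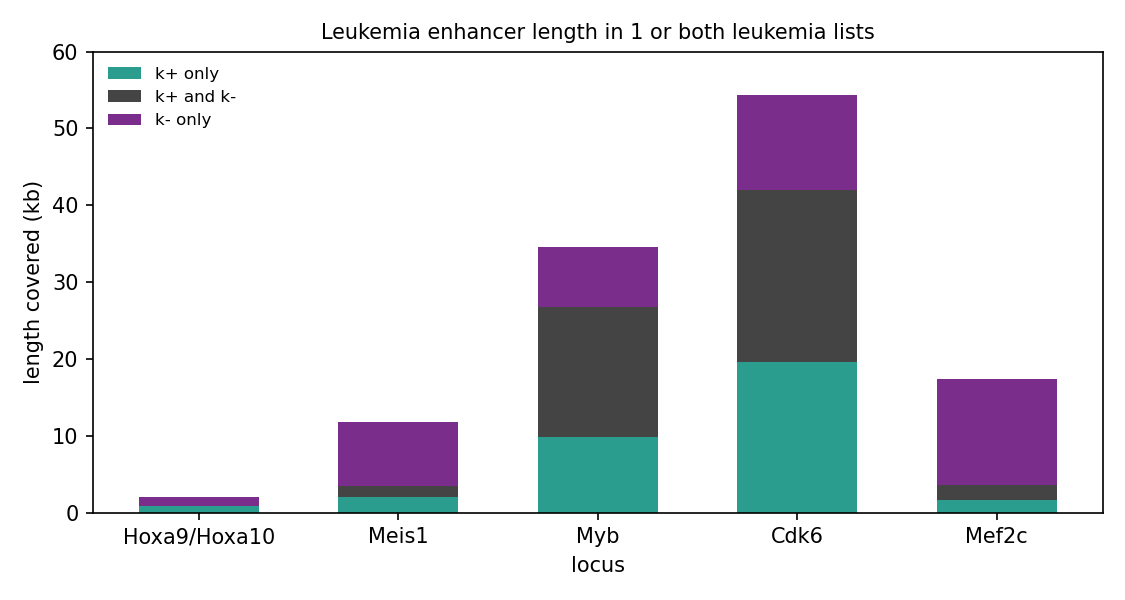
Leukemia enhancer length in kb (y axis) at the 5 loci (x axis), divided into base pairs in k+ only, in both lists and in k- only. Both lists share 17.0 kb at Myb and 22.4 kb at Cdk6 and 0 bp at Hoxa9 and Hoxa10, and k- only makes up most of the bars of Meis1 and Mef2c.

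Over the 5 loci the lists shared 42.8 kb, which was 55.9% of the k+ length and 49.5% of the k- length, against 61.7% and 37.9% over the whole lists. At Myb the shared 17.0 kb made up 63.4% of k+ and 68.5% of k-, and at Cdk6 22.4 kb made up 53.3% and 64.4%. At Meis1 only 1.4 kb was shared, or 41.2% of k+ and 14.3% of k-, and at Mef2c 2.0 kb, or 55.6% and 12.7%. Counted as regions, 28 of 45 k+ regions met k- (62.2%, 46.5 to 76.2%; whole list 61.0%) and 29 of 58 k- regions met k+ (50%, 36.6 to 63.4%; whole list 39.5%). Among the 56 gained regions 25.0% were in both lists, 26.8% in k+ only and 48.2% in k- only, close to the 28.3%, 21.2% and 50.5% of the whole gained list.

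Pooled over the 5 loci, leukemia regions were wide and lay close together, but the loci differed. The median width was 1400 bp in k+ and 1200 bp in k-, against 800 bp in both whole lists. At Myb it was 1800 bp in both lists, at Cdk6 1800 bp in k+ and 1000 bp in k-, and at Mef2c 1200 bp in k-. The k+ regions of Meis1 and Mef2c had medians of 500 and 400 bp. It was 800 bp in k- at Meis1, and 800 bp in k+ and 600 bp in k- at Hoxa9 and Hoxa10. Of the k+ regions at the loci 31 of 45 (68.9%) lay in clusters of 3 or more, against 33.0% of the whole list. For k- this was 42 of 58 (72.4%), against 37.7%, and for GMP 9 of 20 (45.0%), against 14.8%, with all 9 at Cdk6. The gained regions followed with 36 of 56 (64.3%), against 37.2%. Regions per Mb at the loci were 6.92 (k+), 6.07 (k-), 8.97 (GMP) and 5.35 (gained) times the autosome mean. Stitching at a fixed distance joins more regions where they are dense, so the cluster shares are not separate from this density. Clustering beyond it was not tested. Stitching at 5 kb left 22 of 58 k- regions in clusters (37.9%, against 22.5% of the whole list), and among GMP regions of at least 400 bp 4 of 16 were left (25.0%, against 9.24%). The window of Hoxa9 and Hoxa10 held no cluster in any list, and none of the 4 k+ regions of Mef2c lay in a cluster.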

How the data were processed

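ChIP-seq was made from 24 libraries of 1 sample each. The deposited files are 6 region lists of 3 columns (chromosome, start and end), a kind of value other than counts or signal, with 0 score columns. The authors' rule for an enhancer is stated in no source used here. BWA, Picard, MACS2, HOMER and deepTools and the build mm9 are named, per the submitters' processing notes, with no settings. All positions are multiples of 200 bp, printed from 1. The gained list was found to be the merged k+ and k- regions without a GMP region, the lost list the GMP regions without a leukemia region, and the maintained list the intersection; all 15189, 1504 and 1870 regions were rebuilt exactly.

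Regions overlapping a window by 1 bp were counted whole. Overlap was coded in Python 3.11.15 (NumPy 2.4.6, SciPy 1.17.1, matplotlib 3.10.9), checked against bedtools 2.31.1 and tested on simulated data. Clusters hold 3 or more regions stitched at 10 kb. For comparison, the autosomes were divided from 3 Mb on into non-overlapping stretches of each window's length, with mm9 lengths from GenomeInfoDb 1.38.1 (R 4.3.3). Where a share is printed with an interval, it is the exact 95% interval. No test was run, as no list has a replicate.

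The genes, windows and lists were chosen with earlier results of these data known. Named regions were every GMP region, the 3 widest gained regions, the widest k+ and k- region and the gained cluster with the most regions per locus, and all gained regions where there were at most 10. The lost regions' surroundings and the other Myb clusters were picked after their values were seen. The gene table is GRCm38, so distances to genes, the planned list of other MLL-fusion targets and region sequences were not analysed here. Read signal, P300 and the A485 series were not analysed here.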

Additional observations from a re-analysis of the deposited data

How the results depend on the processing

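Of 108 alternative values, 88 stayed within the limits set (1.5 times for counts, widths and differences, the 95% interval for shares) and 20 moved. No difference between k- and k+ length changed sign. No list has a replicate, so leaving out a replicate was not applicable. No paired analysis was possible because the lists carry no replicates. Leaving out each locus in turn and clipping regions to the window were alternatives chosen after seeing the data. Asking for 50% of both regions raised the share of GMP regions without a leukemia region from 20.0 to 90.0%. It raised the share of merged leukemia regions without a GMP region from 81.2 to 100%. The 90.0% was found with single k+ and k- regions as partners, the 100% with merged ones. Both shares thereby turned from below to above those of the whole lists, which were 80.9 and 97.4% under this rule. No intervals are given for it, so a turn beyond counting error was not assessed. The rule cannot be met where the narrower region is less than 50% as wide as the other. The same rule lowered the share of k+ regions that met k- to 33.3% and of k- regions that met k+ to 25.9%. Keeping regions of at least 800 bp left 10 GMP and 29 k+ regions at the loci. Keeping only the widest leukemia regions, as many as the GMP list holds, left 23 k+ and 21 k- regions. Stitching at 20 kb put 14 GMP regions in clusters, regions of at least 400 bp gave 4, and stitching at 5 kb gave 22 k- regions. The cluster shares at the loci stayed above those of the whole lists at each of these settings. The other moved values were sizes of the difference between k- and k+ length. At Myb k+ covered 3800 bp more in windows widened by 100 kb and 5000 bp more among the widest regions, and at Mef2c k- covered 7600 bp more among the widest regions. At Hoxa9 and Hoxa10 the difference was 1000 bp in widened windows and 0 bp in regions of at least 800 bp and among the widest regions. Without scores, the part of sequencing depth in the content of the lists was not tested.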

Other observations

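At Mef2c the k- list left a gap at 2 of the 3 GMP regions, and the third, of 400 bp, lay wholly inside a k- region. The lost GMP region of 800 bp lay between k- regions that ended 200 bp below it and began 1000 bp above it. The kept region of 1000 bp lay between k- regions 200 and 400 bp away. The signal in these gaps was not analysed here. Lost regions beside leukemia regions are frequent in the series: of all 1504 lost regions, 30.1% lay within 1 kb of a leukemia region and 50.5% within 10 kb. At the 5 loci 1 of 4 lay within 1 kb and all 4 within 10 kb.

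Of the leukemia regions at the loci that met no GMP region themselves, 1 k+ and 4 k- regions belong to no gained region, since the other leukemia list joins them to a region that met GMP. Of these, 3 lie at Mef2c, 1 at Myb and 1 at Cdk6.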
